A study of Homo sapiens with 2 samples.

Results

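MKN74, an established gastric cancer cell line, was compared with itself after transfection of SET7/9 siRNA or of negative control siRNA. The comparison rests on 1 two-colour Agilent whole-genome expression array, 1 of the 2 arrays of the series, and every gene probe of that array was eligible. The other array carried the same comparison in MKN45, a second gastric cancer line, and is used here only beside the MKN74 values. Both groups of MKN74 cells were grown in RPMI1640 with 10% FBS, electroporated with a final siRNA concentration of 50 nM and harvested 48 hours later. RNA from the SET7/9 siRNA cells carried Cy5 and RNA from the negative control siRNA cells carried Cy3. There was no replicate array and no dye swap, and it is not stated which SET7/9 siRNA sequence was hybridised, so that an effect of the dye, of the siRNA sequence and of the loss of SET7/9 cannot be told apart. A log2 ratio below 0 means a lower signal with SET7/9 siRNA, and lower and higher are used for probes at least 1.5-fold from the control, since 1 array gives no test across replicates. The error given with a ratio is that of the scanner software for the spot on the log2 scale, not a replicate error. Of the 34127 gene probes, 18582 (54.4%), for 14487 genes, were kept because both channels were well above background.

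SET7/9, the product of SETD7, is a lysine methyltransferase that adds a single methyl group to H3K4, a mark found at enhancers and promoters of active genes. It also methylates other proteins, among them p53, the NF-kB subunit RelA and transcription factors of other pathways. The array asked which transcripts differ when SETD7 is depleted in gastric cancer cells.

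SETD7 itself had 2 kept probes on chromosome 4 of GRCh37. At 140427692 to 140427751 the signal was 368.5 in the control and 90.1 with SET7/9 siRNA, a log2 ratio of -2.03 (error 0.28) and the lowest of all kept probes. The other probe, at 140453844 to 140453903, had 96.3 in the control and 113.7 with SET7/9 siRNA, a log2 ratio of 0.24 (error 0.22). The probes thus did not move together, and SETD7 is not among the genes supported by several probes. Both probes were in the second dimmest of 5 equal classes of signal, below the median kept signal of 404.5 in Cy3 and 404.7 in Cy5. By qRT-PCR and western blot the paper reports reduced SETD7 transcript and protein in MKN74 cells after transfection of siRNA against this gene. Whether the RNA on the array came from those transfections is not stated.

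**Figure D1:**
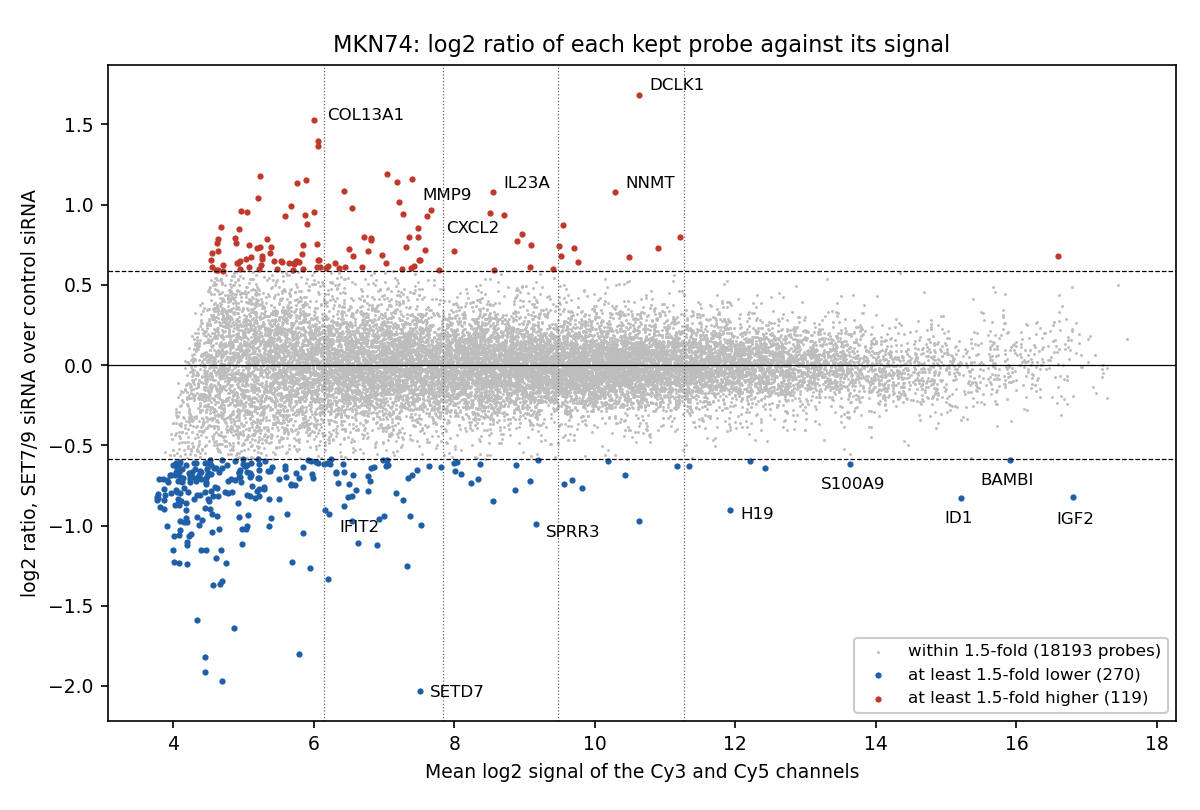
Each point is 1 kept probe on the MKN74 array, with its mean log2 signal over the channels on the x axis and its log2 ratio of SET7/9 siRNA over control siRNA on the y axis. Dashed lines mark 1.5-fold and dotted lines divide the probes into 5 equal classes of signal. Of the 270 lower probes, 198 lie in the dimmest 20%, and DCLK1, NNMT, IGF2 and ID1 stand apart at high signal.

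At least 1.5-fold lower signal was found for 270 probes (1.45% of the kept probes), which belong to 263 genes (1.82%), and at least 1.5-fold higher signal for 119 probes (0.64%), which belong to 116 genes (0.801%). With normexp background correction (offset 50) and loess in place of the scanner software's processing, 32 of the same kept probes were lower and 42 higher. The share of higher among called probes was then 56.8% in place of 30.6%. An offset added to both channels by itself draws the ratios of dim probes toward 0, and its part in these counts was not tested. Most ratios were small, and 81.0% of the kept probes lay within 0.25 of 0 on the log2 scale. The calls were concentrated among dim probes. In the dimmest 20%, with mean signals from 13.6 to 70.5, 198 probes were lower and 64 higher, whereas in the brightest 20%, from 2466 upward, 8 were lower and 1 was higher. The ratio was also least repeatable there, with a pooled SD between spots of the same probe of 0.204 in the dimmest 20% and 0.046 in the brightest. The dimmest signal that counted as well above background was 17.4 in Cy3 and 9.96 in Cy5, so that the filter admitted dimmer spots in the channel of the SET7/9 siRNA cells. The part of these limits in the larger number of lower calls was not tested.

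Genes measured by several probes were examined for probes on one side of 0. There were 3347 genes with 2 or more kept probes, and in 1844 of them (55.1%) all probes had the same sign. With all probes below 0 and at least 1 of them 1.5-fold lower there were 38 genes (1.14% of the 3347), and with all probes above 0 and at least 1 of them 1.5-fold higher there were 22 (0.657%). A gene with a lower probe had its other probes below 0 in 38 of 72 cases (52.8%), close to the 55.1% of all genes with several probes. For genes with a higher probe the count was 22 of 31 (71.0%). All probes of these 60 genes lay apart in the genome, except those of LOC389834 and GGT1, which overlapped. In 14 of the 60 genes every kept probe was brighter than the dimmest 20%.

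At least 2 probes past 1.5-fold were found for 5 lower and 3 higher genes. With normexp and loess IFIT2 (-0.65 and -0.50) and CXCL2 (0.62 and 0.52) each kept 1 probe past 1.5-fold. IFIT2, an interferon-induced protein that inhibits translation of viral RNA, had signals of 1179.9 in the control and 693.1 with SET7/9 siRNA at its brighter probe and 102.3 and 53.8 at its dimmer one. Its log2 ratios were -0.77 (error 0.22) and -0.93 (error 0.24), and their mean of -0.85 was the lowest of the set. IGF2, the imprinted gene of insulin-like growth factor II, had 152336 in the control and 86077 with SET7/9 siRNA at 1 probe, among the brightest of the array. Its ratio there was -0.82 (error 0.22), and the dimmer IGF2 probe, at 1741.2 and 1081.9, gave -0.69 (error 0.21). SLC22A11, a transporter of organic anions, had ratios of -0.85 and -0.63. GSN encodes gelsolin, which severs actin filaments, and had ratios of -0.78 and -0.60 at signals of 611.5 and 1428.8 in the control. The uncharacterised LOC441666 had 4 kept probes between -0.95 and -0.37, of which 3 passed 1.5-fold.

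In the opposite direction CXCL2, a chemokine that attracts neutrophils, had 364.9 in the control and 623.8 with SET7/9 siRNA at 1 probe and 149.8 and 246.7 at the other. Its ratios were 0.77 and 0.72 (error 0.22 each). KRTAP3-1, a hair keratin-associated protein, had the highest mean of the set, 1.09, from a probe at 0.98 (error 0.24) and a probe printed on 9 usable spots at 1.19 (SD 0.14 over spots). The remaining such gene, MGC21881, had 3 probes at 0.27, 0.71 and 0.73.

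The remaining 52 of the 60 genes had 1 probe past 1.5-fold and the others on the same side of 0, in some cases very near it, as for PGC at -0.79 and -0.01. On the lower side they included CLCN4, a chloride and proton exchanger, with ratios of -1.02 and -0.41. RSAD2, the antiviral protein viperin, had -0.75 and -0.45. FAM69A, now named DIPK1A, had -0.84 and -0.46. For TRIP12, a ubiquitin ligase, the brighter probe was near 0 at -0.18, with a control signal of 4475.7, while the dim probe was at -1.06. The same form was seen in PPP1R18, a regulator of protein phosphatase 1, at -0.28 and -0.95, and in VPS13B, a lipid transfer protein of the Golgi, at -0.29 and -0.87. IKZF2, the lymphoid transcription factor Helios, had 3 probes between -0.87 and -0.33. In these 4 genes the dimmest probe carried the largest ratio.

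On the higher side PALLD, the actin-binding protein palladin, had ratios of 0.71 and 0.58, and AP1S2, a subunit of a clathrin adaptor, had 0.85 and 0.53. FRMD5, a FERM domain protein, had 0.80 and 0.50. BRP44L, now named MPC1, encodes a subunit of the mitochondrial pyruvate carrier and had 0.67 (SD 0.05 over 10 spots) and 0.44. HCFC2, a relative of host cell factor, had 0.78 and 0.54. KCTD12, an auxiliary subunit of GABA-B receptors, had 0.65 and 0.54. The RNA-binding protein gene KHDRBS3 had 0.75 and 0.48, ITPK1, an inositol phosphate kinase, 0.74 and 0.45, and NTNG1, a netrin of axon guidance, 0.93 and 0.40. All kept probes of KCTD12, KHDRBS3, ITPK1 and NTNG1 were in the dimmest 20%.

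**Figure D2:**
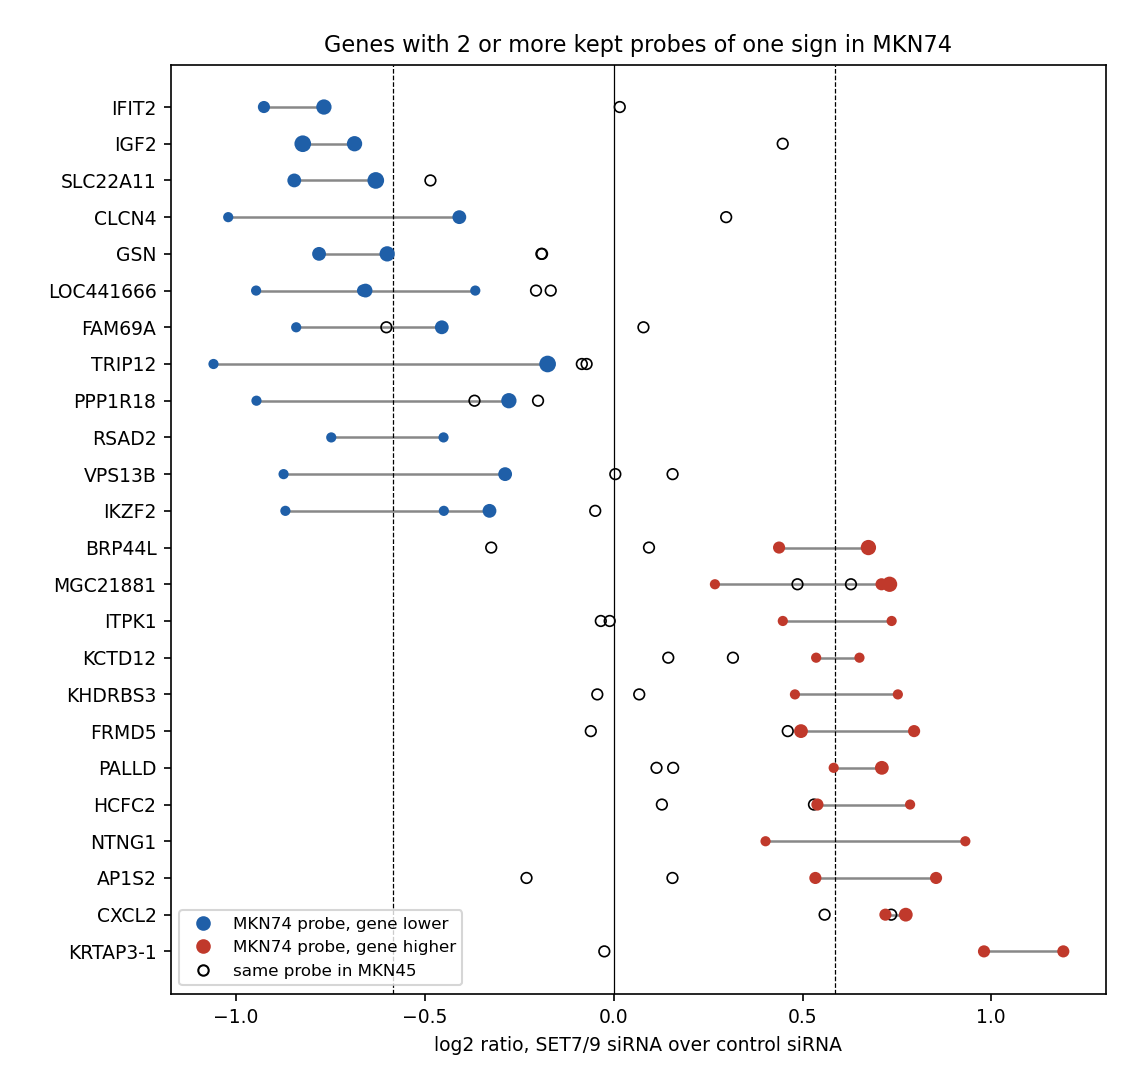
The 12 genes with the lowest and the 12 with the highest mean log2 ratio among genes with 2 or more kept probes of one sign are plotted by probe. Filled points are MKN74 probes, larger where the signal is brighter, open circles are the same probes in MKN45, and dashed lines mark 1.5-fold. IFIT2, IGF2, SLC22A11 and GSN on the lower side and CXCL2 and KRTAP3-1 on the higher side have both probes past 1.5-fold.

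Interferon-stimulated genes lay mostly below 0 in MKN74, by small differences. These genes answer type I interferons through transcription factors such as STAT2 and IRF9 and encode antiviral proteins. Of the 45 listed genes 38 were kept, their median log2 ratio was -0.21, and 35 of the 38 were below 0. Over all 14487 genes the median was -0.0081 and 52.0% were below 0. A listed gene is counted as lower or higher where at least 1 of its kept probes passed 1.5-fold. By this rule 1.82% of all 14487 genes were lower and 0.801% higher, which is the share to set beside the calls of every list. There were 5 such genes of the 38 (13.2%), all lower: IFIT2, OASL, IFI44L, DDX60 and RSAD2, the last with both probes in the dimmest 20%. OASL, a ubiquitin-like relative of the oligoadenylate synthetases, had 123.7 in the control and 70.3 with SET7/9 siRNA, a ratio of -0.82 (error 0.23). IFI44L had 189.2 and 108.7, a ratio of -0.80 (error 0.22). DDX60, a helicase of the antiviral response, had 323.2 and 212.7, a ratio of -0.60 (error 0.21).

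Some of the brightest interferon-stimulated genes were shifted less far in the same direction. IFIT1 had 3267.1 in the control and 2184.5 with SET7/9 siRNA, a ratio of -0.58 (error 0.21), just within 1.5-fold. ISG15, the ubiquitin-like modifier, had 10607 and 8222, a ratio of -0.37 (error 0.21). IFITM3, a membrane protein that blocks virus entry, had 43361 and 34711, a ratio of -0.32 (error 0.21). IFI27 was at -0.47 and IFI6 at -0.53, and both probes of BST2, the virus-tethering protein tetherin, were below 0 at -0.41 and -0.35. Among the transcription factors that drive the group, STAT2 was at -0.16 and IRF9 at 0.02. The 3 genes above 0 were IRF9, IRF1 and DDX60L, at most 0.06. The RNA sensors, which detect viral RNA in endosomes and cytosol, had a median of -0.13 over 14 kept genes, 13 of them below 0. OAS1, OAS2, OAS3 and EIF2AK2 of this list are also among the interferon-stimulated genes, so the lists are not separate measurements. TLR3, the endosomal receptor for double-stranded RNA, was the 1 lower gene of this list, with 119.3 in the control and 74.4 with SET7/9 siRNA, a ratio of -0.68 (error 0.22). IFIH1 was at -0.14 and DDX58, which encodes RIG-I, at -0.05.

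The MKN45 values of the same genes were spread over both sides of 0. Over the 33 interferon-stimulated genes kept on both arrays the median was -0.22 in MKN74, whereas it was 0.06 in MKN45, and 31 of the 33 had a lower ratio in MKN74. Below 0 were 31 of the 33 in MKN74 and 11 in MKN45. In MKN45 IFIT2 was at 0.02, OASL at 0.08 and IFI6 at 0.60, while genes below 0 in both lines included DDX60 at -0.31, IFIT1 at -0.38, IFIT3 at -0.21 and BST2 at -0.20 in MKN45. The MKN45 signals were dim for IFIT2 (37.8 and 38.3, error 0.26) and DDX60 (34.5 and 27.8, error 0.28). Their control signals in MKN74 were 1179.9 and 323.2, so these ratios compare unlike signal levels. Over the 14 RNA sensors, some of them in the interferon list too, the medians were -0.13 and 0.06. With 1 array per line the difference between the lines was not tested, and array and cell line cannot be told apart.

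Promoters of 3 of the 5 called interferon-stimulated genes, without IFIT2 and OASL, are shown because many genes of this group carry an interferon-stimulated response element, which is bound by IRF proteins. The letters GAAA, any 2 bases and GAAA again were searched on both strands from 250 bases before to 50 bases after the start of each gene, in RefSeq promoters of GRCh38.p14, and occurred in 1255 of 35116 promoters (3.57%). Capitals mark the matches, and each sequence printed is the 250 bases before the start and is written 5′ to 3′ on the strand of its gene. IFI44L (chr1:78620198-78620447, plus strand) and DDX60 (chr4:168318753-168319002, minus strand) held 2 matches each, and RSAD2 (chr2:6877527-6877776, plus strand) held 1 on the opposite strand.
IFI44L: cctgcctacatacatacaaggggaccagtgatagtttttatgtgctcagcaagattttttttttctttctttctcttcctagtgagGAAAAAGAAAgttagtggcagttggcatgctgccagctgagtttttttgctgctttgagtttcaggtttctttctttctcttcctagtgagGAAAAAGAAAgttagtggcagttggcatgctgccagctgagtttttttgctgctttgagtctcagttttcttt
DDX60: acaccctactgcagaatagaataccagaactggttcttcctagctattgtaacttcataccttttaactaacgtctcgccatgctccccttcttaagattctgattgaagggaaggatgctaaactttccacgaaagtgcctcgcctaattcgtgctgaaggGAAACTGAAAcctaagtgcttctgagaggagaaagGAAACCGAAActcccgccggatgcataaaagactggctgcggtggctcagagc
RSAD2: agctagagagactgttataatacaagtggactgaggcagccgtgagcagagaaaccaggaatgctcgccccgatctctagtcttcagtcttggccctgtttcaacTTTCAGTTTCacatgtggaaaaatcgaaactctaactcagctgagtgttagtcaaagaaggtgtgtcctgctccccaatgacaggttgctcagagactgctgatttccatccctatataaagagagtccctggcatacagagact
Of the 45 listed genes 36 had a promoter sequence and 26 of these held the letters. The median log2 ratio was -0.33 over the 22 kept genes with a match and -0.18 over the 8 without. Over all 381 kept genes with a match the median was -0.03, with 9 lower and 3 higher genes, beside a median of -0.0060 over the 10151 kept genes that have a promoter sequence. Leaving out the listed interferon-stimulated genes and RNA sensors, the 357 remaining genes with a match had a median of -0.02.

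**Figure D3:**
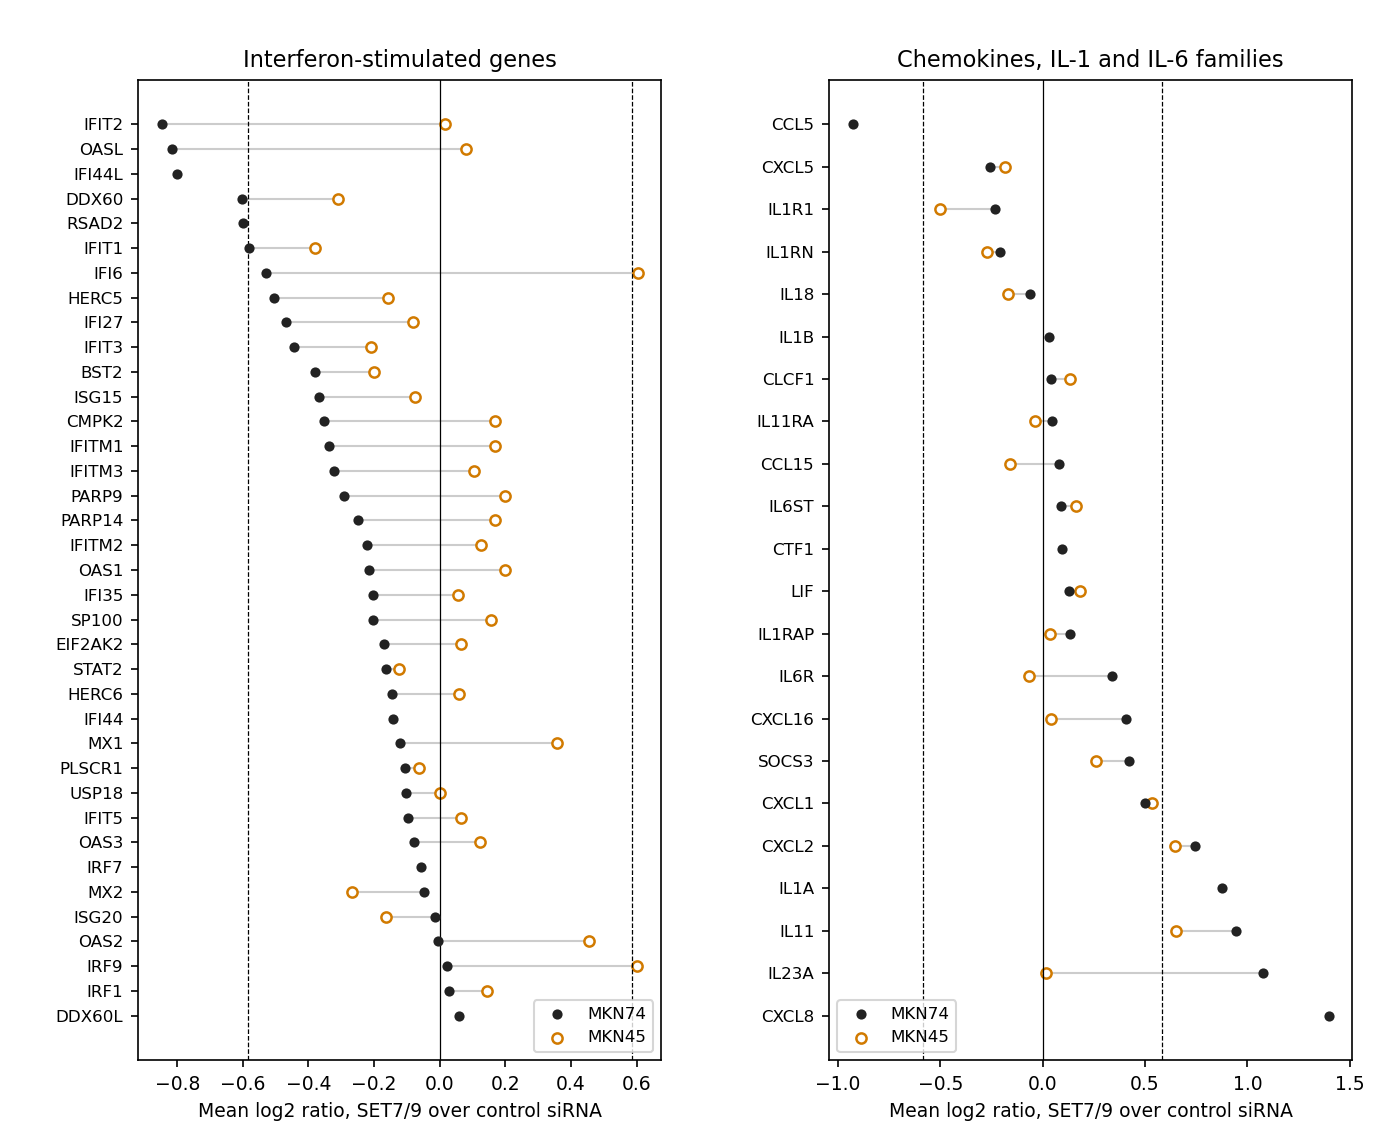
Mean log2 ratios of SET7/9 siRNA over control siRNA are plotted by gene for kept interferon-stimulated genes (left) and for the kept chemokines and IL-1 and IL-6 family genes (right), with MKN74 as filled and MKN45 as open points and dashed lines at 1.5-fold. Of the interferon-stimulated genes plotted, IRF9, IRF1 and DDX60L lie right of 0 in MKN74 and the others left of it, and CXCL8, IL23A, IL11, IL1A and CXCL2 lie right of the upper line.

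Chemokine and cytokine genes showed higher signals in a few members. Of 20 chemokines 7 were kept, with a median log2 ratio of 0.41, and 5 of the 7 were above 0. With outlier spots kept the median was 0.24, as it was from the series table, and it was 0.0 with no filter on background. CXCL8, probed under its older name IL8, attracts neutrophils as CXCL2 does and had 41.1 in the control and 108.2 with SET7/9 siRNA, a ratio of 1.40 (error 0.26), or 0.77 with normexp and loess. Its signal was in the dimmest 20%, and its other probe was not well above background in either channel. CXCL1, the closest relative of CXCL2, had ratios of 0.49 and 0.51 at its probes, and CXCL16 had 0.54 and 0.27. CCL5, which attracts T cells and is also induced by interferon, went the other way, with 67.9 in the control and 35.7 with SET7/9 siRNA, a ratio of -0.93 (error 0.27). CXCL5 was below 0 as well, with 163.5 and 136.7, a ratio of -0.26 (error 0.21), and it was at -0.18 in MKN45. In MKN45 CXCL2 was at 0.65 and CXCL1 at 0.53.

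Among the IL-1 and IL-6 families 15 of 21 genes were kept, 12 of them were above 0, and the median was 0.10. IL23A, a subunit of interleukin 23, had 257.9 in the control and 544.4 with SET7/9 siRNA, a ratio of 1.08 (error 0.23). IL11, a cytokine of the IL-6 family, had 263.3 and 507.0, a ratio of 0.95 (error 0.22). IL1A, the epithelial alarm cytokine IL-1 alpha, had 44.3 and 81.0 over 10 spots, a ratio of 0.88 (SD 0.20 over spots). IL6 itself was well above background in 1 channel only. The NF-kB subunits and feedback regulators, which many of these cytokine genes respond to or encode, had a median of 0.05 over 24 kept genes. Of these 15 were above 0 and 9 below, the lowest at -0.46. BIRC3, an inhibitor of apoptosis, was the 1 higher gene, at 145.5 and 284.0, a ratio of 0.97 (error 0.22). TNFAIP3, the feedback inhibitor A20, was at 0.55, RELB at 0.36 and NFKBIA at 0.23, whereas RELA was at -0.02 and NFKB1 at 0.05. In MKN45 TNFAIP3 was at 0.60, BIRC3 at 0.36 and IL23A at 0.02.

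The promoters of CXCL2 and CXCL8 are shown because both hold the same NF-kB motif. The letters GGAATTTCC, searched on both strands in the same windows, occurred in 162 of 35116 promoters (0.461%). CXCL2 (chr4:74099196-74099445, minus strand) and CXCL8 (chr4:73740319-73740568, plus strand) held 1 match each, in capitals, in the 250 bases before the start.
CXCL2: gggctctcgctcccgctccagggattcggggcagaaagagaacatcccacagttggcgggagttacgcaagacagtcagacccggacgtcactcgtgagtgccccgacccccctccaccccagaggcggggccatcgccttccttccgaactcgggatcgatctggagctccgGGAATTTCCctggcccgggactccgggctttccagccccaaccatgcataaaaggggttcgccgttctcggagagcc
CXCL8: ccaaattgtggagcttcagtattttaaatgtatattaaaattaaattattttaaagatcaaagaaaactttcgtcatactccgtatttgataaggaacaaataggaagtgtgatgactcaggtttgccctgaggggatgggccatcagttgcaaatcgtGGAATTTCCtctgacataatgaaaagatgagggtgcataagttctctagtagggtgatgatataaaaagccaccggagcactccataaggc
Of 16 chemokines with a promoter sequence 8 held the letters. The 4 kept ones, CXCL5 at -0.26 among them, had a median log2 ratio of 0.62, and the 1 kept chemokine without a match was at 0.08. The kept CCL5 and CXCL16 are not in this comparison. Over all 63 kept genes with a match the median was 0.05, with 0 lower and 3 higher genes. Without the listed chemokine, cytokine and NF-kB genes, 54 remained with a median of 0.05, 0 lower and 1 higher.

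Near-identical members of gene families can share signal on an array, and cross-hybridisation was not tested. Extracellular proteases were mostly near 0 with a few members far from it. Of 30 metalloproteinases and their inhibitors 14 were kept, with a median of 0.15. MMP9, a gelatinase, had 113.1 in the control and 252.6 with SET7/9 siRNA over 9 usable spots, a ratio of 1.16 (SD 0.07 over spots). MMP1, a collagenase, had 36.8 and 80.4 over 10 spots, a ratio of 1.13 (SD 0.15). MMP11 was lower, with 34.1 and 17.7, a ratio of -0.94 (error 0.32). MMP7, one of the genes that the study selected, was not well above background in either channel in MKN74. In the serpin list SERPINB2, an inhibitor of plasminogen activators, had 104.3 and 210.7, a ratio of 1.01 (error 0.23), and it was the 1 call among 12 kept genes with a median of 0.06. Among 12 kept collagens the median was 0.0015, with COL13A1, a transmembrane collagen, higher at 1.53 (SD 0.14 over 10 spots) and COL24A1 lower at -0.90 (error 0.43), both dim.

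Calcium-binding S100 genes lay mostly below 0, and small proline-rich genes of the cornified envelope lay on both sides. In the list of S100, small proline-rich and annexin genes the median was -0.17 over 22 kept genes, with 17 below 0. S100A8 and S100A9 form calprotectin, and both were lower. S100A8 had 247.0 in the control and 103.8 with SET7/9 siRNA, a ratio of -1.25 (error 0.24). S100A9 had 15697 and 10246, a ratio of -0.62 (error 0.21). SPRR3, a cross-linked protein of the cornified envelope, had 806.6 in the control and 405.4 with SET7/9 siRNA, a ratio of -0.99 (error 0.22). The list was not uniform, since SPRR2A was at 0.53 and both probes of SPRR2D at 0.27 and 0.28. In MKN45 SPRR3 was at -0.96 and SPRR2A at 1.03, while S100A8 and S100A9 were not kept there. The median over the 20 genes kept in both lines was -0.13 in MKN74 against -0.12 in MKN45.

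**Figure D4:**
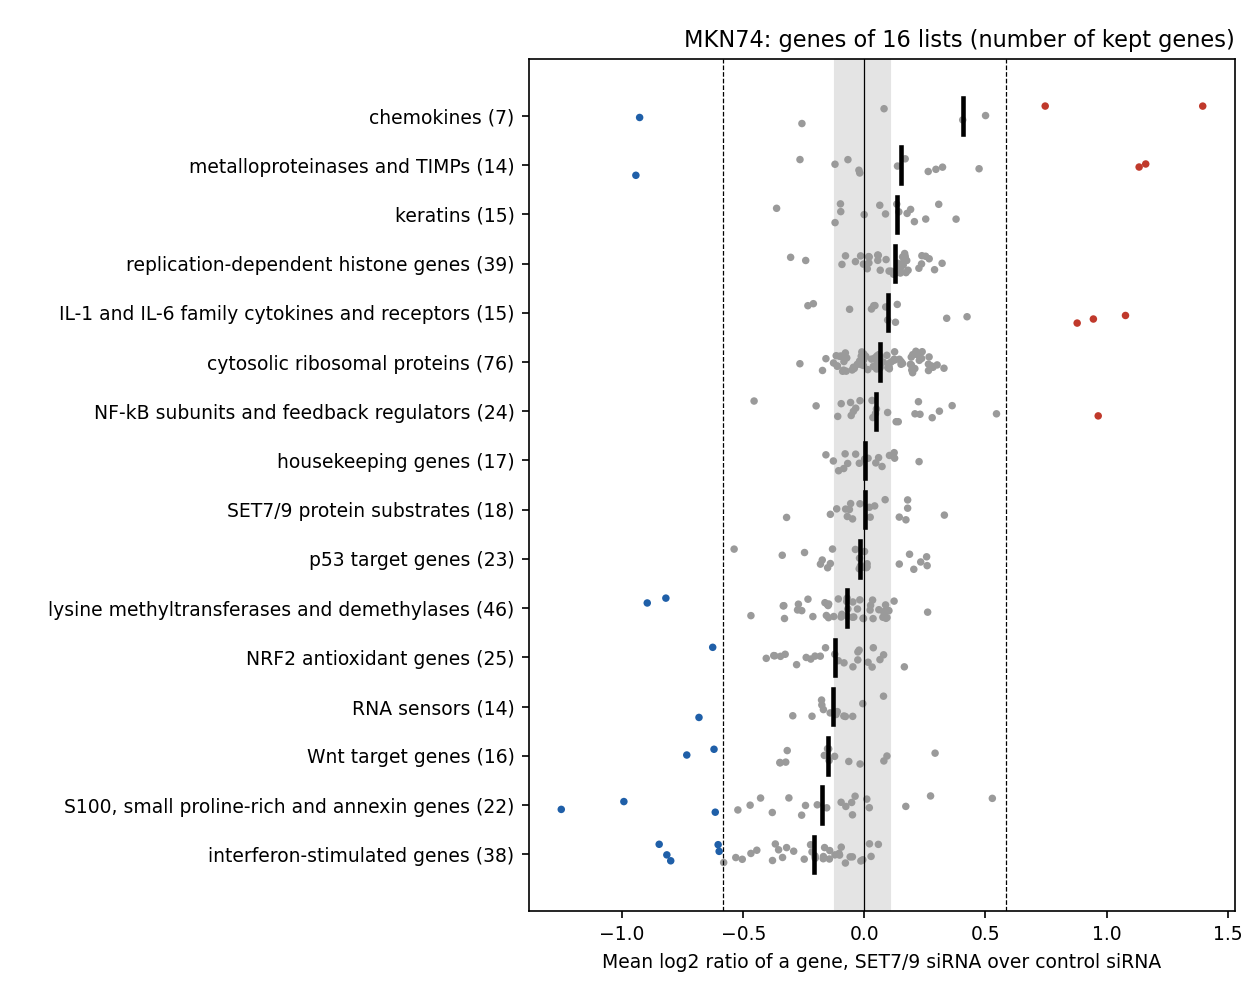
Each point is the mean log2 ratio over the kept probes of 1 gene in MKN74, black bars are list medians, dashed lines mark 1.5-fold, and the grey band spans the middle 50% of all 14487 genes. Blue and red points are genes whose mean passed 1.5-fold. Among the lists plotted, the interferon-stimulated genes have the lowest median, -0.21, and the chemokines the highest, 0.41.

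Wnt target genes had a median of -0.15 over 16 kept genes, and 13 of them were below 0. APCDD1, a Wnt inhibitor, had 389.2 in the control and 234.1 with SET7/9 siRNA, a ratio of -0.73 (error 0.22). ASCL2, a transcription factor of intestinal stem cells, had 583.0 and 379.2, a ratio of -0.62 (error 0.21). Only 3 genes were above 0, namely SOX9 at 0.29, LEF1 at 0.09 and AXIN2 at 0.08, the last from probes at -0.12 and 0.28. Of other common readouts of the pathway, SP5 was at -0.35 and NKD1 at -0.32. Antioxidant genes of NRF2 had a median of -0.12 over 25 genes, 19 of them below 0, with AKR1B10, an aldo-keto reductase, lower at -0.63 (error 0.31) and AKR1C1 at -0.40. Targets of YAP in the Hippo pathway had a median of 0.12 over 18 genes and none past 1.5-fold, the farthest being NT5E at 0.51. Among the EGF receptor ligands and receptors NRG4 was lower at -0.71 (error 0.27), and in fatty-acid synthesis FADS1, a desaturase, was higher at 0.74 (error 0.22).

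Chromatin and splicing genes were close to 0 apart from a few single probes. In the list of lysine methyltransferases and demethylases 32 of 46 kept genes were below 0, with a median of -0.07. The lower ones were SETD7, the siRNA target, and PHF21A, listed with these enzymes though it is a reader of unmethylated H3K4. PHF21A had 119.6 and 67.8, a ratio of -0.82 (error 0.23). KMT2D, a methyltransferase of enhancers, was at -0.47 and EZH2 at 0.26. Replication-dependent histone genes had a median of 0.13 over 39 genes, 32 of them above 0. The 2 histone genes with a lower probe, HIST1H2BK and HIST1H2AC, each had a brighter probe near 0, at 0.13 for HIST1H2BK and at -0.01 for HIST1H2AC, so their probes did not move together. Of 45 splicing factors SREK1IP1 was lower at 145.1 and 67.2, a ratio of -1.11 (error 0.24), and HNRNPA2B1 had 1 lower probe at -1.04 beside bright probes at -0.13 and 0.06.

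The other genes that the study selected from its arrays had few or dim probes. CCDC28B had 38.0 in the control and 17.1 with SET7/9 siRNA, a ratio of -1.15 (error 0.39), and RASL10B had 51.5 and 16.5, a ratio of -1.64 (error 0.34). PGC, the gastric proenzyme pepsinogen C, had 2 kept probes at -0.79 and -0.01, both in the dimmest 20%. Because the study chose these genes on these arrays, their direction on the arrays is no independent evidence. The paper reports the same directions by RT-PCR and qRT-PCR in MKN74 and MKN45 for CCDC28B, RASL10B, PGC, SREK1IP1, PHF21A, IL11 and CXCL2. By these methods it also reports MMP1 raised in every line tested, MMP9 in MKN74, and MMP7 in the lines other than MKN74. With SET7/9 overexpression in MKN7 cells it reports the opposite directions, except for PHF21A, which was not activated.

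Known protein substrates of SET7/9 showed no call at the transcript level. Over 18 kept substrate genes the median was 0.0013, and the farthest were IFITM3 at -0.32 and DNMT1 at 0.33. The p53 target genes had a median of -0.02 over 23 genes with none past 1.5-fold, ZMAT3 being the lowest at -0.54. The 38 mitosis genes had a median of 0.05, from BUB1B at -0.19 to HMMR at 0.32, and the 40 DNA replication genes 0.03. The 17 housekeeping genes had a median of 0.0010 and the 76 cytosolic ribosomal protein genes 0.06. Among 15 kept keratins the median was 0.13, from KRT80 at -0.36 to KRT15 at 0.38. Genes of MHC class I antigen presentation had a median of 0.10 over 14 genes, 11 of them above 0, with TAP1, the peptide transporter, the highest at 0.45. Sterol synthesis genes had a median of -0.05 over 25 genes, beside -0.23 in MKN45, and metallothioneins 0.12 over 9 genes, beside 0.33 in MKN45.

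The highest single probe was that of DCLK1, a microtubule-associated kinase known as a marker of tuft cells, with 881.3 in the control and 2835.1 with SET7/9 siRNA, a ratio of 1.69 (error 0.26). Of its other probes 1 was well above background in Cy5 only, at 6.67 and 27.9, and 1 in neither channel. STEAP1, a membrane protein, had 41.4 and 106.6, a ratio of 1.36 (error 0.26), and its other probe, at 13.2 and 46.7, was well above background in Cy5 only. Among the lowest single probes, DLK1, an imprinted gene of a Notch-related protein, had 103.5 in the control and 29.7 with SET7/9 siRNA, a ratio of -1.80 (error 0.28). TSEN15, a subunit of the tRNA splicing endonuclease, had 1 dim probe at -1.97 but a brighter one, printed 10 times, at 0.21 (SD 0.03 over spots). KLHL35 at -1.82 and a probe without a gene name at -1.91 were dim as well, with control signals of 41.2 and 42.5.

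Probes of high signal are given apart, chosen after their values were seen, since the spot error is smallest there. In the upper 60% of signal, 28 of 11149 probes were lower and 21 higher. ID1, an inhibitor of differentiation and a target of BMP signals, had 50499 in the control and 28496 with SET7/9 siRNA, a ratio of -0.83 (error 0.22). BAMBI, a decoy receptor that also responds to BMP, had 75450.4 and 49976, a ratio of -0.59 (error 0.21). H19, an imprinted noncoding RNA next to IGF2, had 5340.6 and 2850.1, a ratio of -0.91 (error 0.22). Further bright lower genes were IGDCC3 at -0.97, TGFBR3, a co-receptor of the TGF-beta family, at -0.72, and SCEL, a cornified-envelope gene, at -0.71. On the higher side NNMT, nicotinamide N-methyltransferase, had 862.7 and 1822.9, a ratio of 1.08 (error 0.23). SGK1, a kinase induced by glucocorticoids and serum, was at 0.87, the ubiquitin ligase TRIM47 at 0.80, and PMEPA1, a target of TGF-beta, had probes at 0.75 and 0.34.

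Of the 691 kept probes printed on several spots, 3 were lower (0.434%) and 12 higher (1.74%), and for these the spread within the array is known. The lower ones were MAGEE1 at -1.04 (SD 0.18, 10 spots), XAGE3 at -0.93 (SD 0.24, 9 spots) and SLC6A4, the serotonin transporter, at -0.84 (SD 0.06, 9 spots). Of the higher ones GZMB, the protease granzyme B, had 302.5 in the control and 577.4 with SET7/9 siRNA, a ratio of 0.93 (SD 0.08, 10 spots), and all 10 spots lay between 0.85 and 1.04. ZBED2, a zinc finger gene, had 1491.8 and 2471.7, a ratio of 0.73 (SD 0.04). INHBA, the subunit of activin A, was at 1.15 (SD 0.16) and KRT34, a hair keratin, at 1.09 (SD 0.10). The spots of FOXA1, an endodermal transcription factor, ranged from 0.41 to 1.35 and those of OSBPL6 from 0.41 to 1.09, so that single spots of these genes fell within 1.5-fold. The SD covers spots of 1 hybridisation and no variation between cultures.

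**Figure D5:**
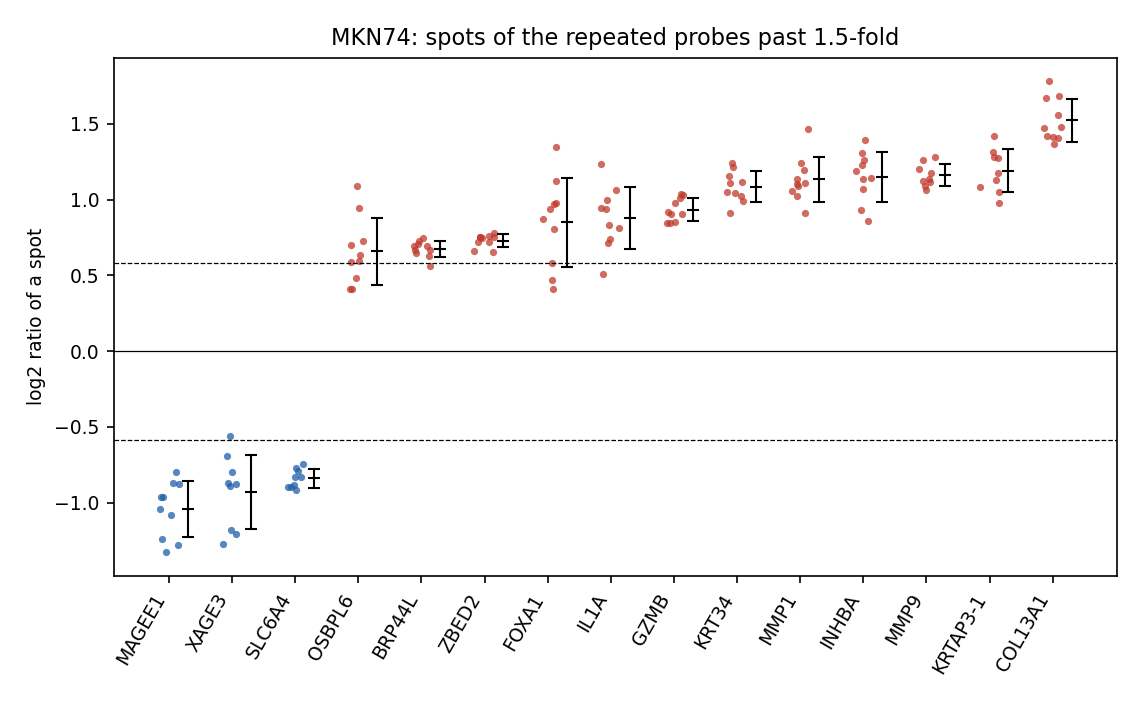
Spots of the 15 probes printed several times that passed 1.5-fold in MKN74 are plotted by gene as log2 ratios, with the mean and SD over spots in black and dashed lines at 1.5-fold. ZBED2 and BRP44L are the tightest of the higher genes, with SDs of 0.04 and 0.05, and FOXA1 is the widest with 0.29.

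Past 1.5-fold in MKN45 were 1.62% of its kept probes on the lower side and 0.814% on the higher side. Of the probes called in MKN74, 197 lower and 90 higher ones were also kept on the MKN45 array. Over all 17362 probes kept on both arrays 65.9% had the same sign in both lines. Of the 197 lower probes 137 (69.5%) were below 0 in MKN45, close to that share, and 36 were lower there and 0 higher. Of the 90 higher probes 79 (87.8%) were above 0 in MKN45, and 9 were higher and 1 lower. Both arrays carried SET7/9 siRNA in Cy5 on 1 slide, so a shared dye effect of a probe and a shared response cannot be told apart. Of the genes with several probes, 23 of 35 lower ones had a mean below 0 in MKN45 and 14 of 20 higher ones a mean above 0, while 65.2% of all 13610 genes kept on both arrays had means of the same sign.

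The epithelial label of the cells was checked on defining markers. EPCAM, CDH1, KRT8, KRT18, KRT19, CLDN4 and CLDN7 were kept, with KRT18 at 138732 in the control, while KRT20, CEACAM5 and TFF3 were not well above background in either channel. None of 6 fibroblast markers was kept, and 2 of 5 leukocyte markers (CD14 and CD68) and 1 of 4 endothelial markers (CDH5) were.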

How the data were processed

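Total RNA of MKN74 cells (SET7/9 siRNA in Cy5, negative control siRNA in Cy3) was hybridised by the authors to 1 Agilent two-colour 4x44K array, and a second array held MKN45. The deposited scanner file (Agilent Feature Extraction 10.7.3.1 per the file headers) gives background-subtracted, dye-normalised intensity values for each channel, a log10 ratio, its error and a p-value of the scanner software. The deposited series table gives log2 ratios, which served as an alternative. The deposited log10 ratio was converted to log2, and replicate spots were averaged per probe without those marked as outliers. Probes entered the analysis when 50% or more of these spots exceeded background clearly in both channels. The error of a ratio is a score from the error model of the scanner software, deposited by the authors on the log10 scale and converted likewise. A gene is the mean of its kept probes. Processed signals are given for Cy3 (control) and Cy5 (SET7/9 siRNA). No read depth applies, and precision is limited by the number of arrays, 1 per cell line. With no replicate array no test across samples was possible and no p-value is reported. The pooled SD of repeated spots was 0.087 on the log2 scale.

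Named genes were SETD7 and the genes the study selected, the 12 lowest and 12 highest genes with 2 or more kept probes of one sign and at least 1 past 1.5-fold, the 5 lowest and 5 highest single probes, and in each gene list the members past 1.5-fold, or else its extremes. Bright and repeated probes, further list members, and the regions and BMP and TGF-beta lists of the closing section were named after their values were seen. The members and lists were chosen with earlier results of these data known. Probe coordinates are those of the files (GRCh37). RefSeq (GRCh38.p14) gave current names for 25768 of 26598 accessions (96.9%) and the promoter sequences. The scripts were tested on simulated data. Some single genes are not reported here. Python 3.11.15, R 4.3.3 and limma 3.58.1 were used. Alternatives were normexp background correction (offset 50) with loess, median centring, other filters on dim probes, outlier spots kept, the deposited table, the scanner software's p, a 2-fold cutoff and the brightest probe of a gene.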

Additional observations from a re-analysis of the deposited data

Results flagged for a closer look

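Probes of the following genes or transcripts passed 1.5-fold in MKN74 and lay on the opposite side of 0 in MKN45 by more than their scanner error there. With 1 array per line the difference between the lines was not tested. The IGF2 probe that was the brighter in MKN74 had a log2 ratio of -0.82 there and 0.45 in MKN45. Its signal was far dimmer in MKN45, so these ratios compare unlike signal levels, and an opposite response of IGF2 was not tested. FOXA1 was at 0.85 in MKN74 and -0.23 in MKN45. The dim HIST1H2AC probe was at -0.79 in MKN74 and 0.21 in MKN45. The probe of the transcript ENST00000367690 was at -0.68 in MKN74 and 0.24 in MKN45.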

How the results depend on the processing

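No paired analysis was possible because there was 1 array per cell line, and for the same reason no replicate could be left out. Counts are given as lower and higher probes, then lower and higher genes with several probes, beside 270, 119, 38 and 22. With normexp (offset 50) and loess they were 32, 42, 5 and 9, where the offset by itself draws the ratios of dim probes toward 0. All 270 and 119 probes kept their sign there, 29 and 38 of them stayed past 1.5-fold, and the share of higher among called probes was 56.8% in place of 30.6%. With 1 or more channels well above background there were 781 higher probes and 120 higher genes (68.3% of called probes higher), and with no filter 2168, 1560, 176 and 194 (41.8%). Above the dimmest 20% the counts were 72, 55, 9 and 8 (43.3%). Requiring the scanner software's p under 0.01 left 139 lower probes and 18 lower genes, and a 2-fold cutoff left 40, 15, 4 and 1. The chemokine median of 0.41 was 0.0 with no filter, 0.24 with outlier spots kept and 0.24 in the deposited table. The tight junction median turned from -0.10 to 0.0076 with no filter. The interferon median ranged from -0.22 to -0.13 over its alternatives. With normexp and loess the SETD7 probes were at -1.36 and 0.08, IFIT2 at -0.65 and -0.50, CXCL2 at 0.62 and 0.52, IL8 at 0.77 and DCLK1 at 1.69. The cause of these changes was not tested.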

Other observations

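Targets of BMP signals, listed after ID1 and BAMBI had been seen, had a median log2 ratio of -0.36 over 15 kept genes of 18, and 11 were below 0. DLX5, a homeobox gene, had 177.9 in the control and 92.6 with SET7/9 siRNA, a ratio of -0.94, and with ID1 and BAMBI it made the 3 lower genes. ID2 was at -0.44, SMAD6 at -0.42 and ID3 at -0.38, while SMAD7 was at 0.14. In MKN45 DLX5 was at 0.00396 and ID3 at 0.41. Targets of TGF-beta, also listed after the values had been seen, had a median of 0.13 over 16 kept genes, 10 of them above 0. The higher ones were PMEPA1, SGK1 and INHBA, all named above before the list was made. Of all 14487 genes 1.82% were lower and 0.801% higher.

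Some called genes are neighbours in the genome, and these regions were also chosen after the values were seen. Their calls stand beside 1.82% lower and 0.801% higher of all 14487 genes. On chromosome 11 around IGF2, 19 of 28 genes on the array were kept, and IGF2, H19, ASCL2 and the noncoding KCNQ1OT1 (-0.95, dim) were lower while none was higher. The imprinted CDKN1C at 0.18 and PHLDA2 at 0.11 lie in the same region, and the median of its genes was -0.09. In the keratin region of chromosome 17, 28 of 66 genes were kept, and KRTAP3-1, LOC730755, KRTAP4-11 and KRT34 were higher, KRT36 (-0.65, dim) was lower, and 20 genes were above 0. In the epidermal differentiation region of chromosome 1, 28 of 67 genes were kept, and IVL (-0.61, error 0.42, dim), SPRR3, S100A9 and S100A8 were lower and none higher. The SPRR2 genes of that region were above 0, with SPRR2A at 0.53 and SPRR2E at 0.50.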
